A study of Mus musculus with 6 samples.

Results

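Cip2a encodes an inhibitor of protein phosphatase 2A (PP2A), and its transcript was examined together with 9 genes of the enzyme itself in RAW264.7 mouse macrophages that received a miR-342-3p mimic. The 10 genes are Cip2a, the catalytic subunits Ppp2ca and Ppp2cb, the scaffold subunits Ppp2r1a and Ppp2r1b, the regulatory subunits Ppp2r2a, Ppp2r5a, Ppp2r5c and Ppp2r5e, and the PP2A-binding protein Igbp1. They were picked by symbol with the change of Cip2a on these arrays already known, so the differences of these 10 genes between the groups are given as a description and not as a test. Each was represented by the probe set, annotated to that gene only, with the largest interquartile range over the arrays. All 10 were measured, out of 19938 genes in all.

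RAW264.7 is an established line of transformed mouse macrophages. The control group (3 arrays) was transfected with a negative control mimic, the miR-342-3p group (3 arrays) with a miR-342-3p mimic, a short synthetic duplex that stands in for the microRNA. The line, the plating of 500000 cells per well and the isolation of total RNA 18 h after transfection were common to both groups, and 150 ng of RNA was labeled for each Affymetrix array. The study describes the replicates of a group as independent experiments, whereas the sample labels only number them, so the spread between arrays may in part be technical. Fewer cells of a kind and less transcript per cell cannot be told apart in such bulk RNA.

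PP2A removes phosphate from serine and threonine residues of many proteins. The working enzyme consists of a scaffold (A), a catalytic subunit (C) and an exchangeable regulatory (B) subunit that selects the substrate and the place of action. The B55 and B56 families of B subunits act in mitotic exit and at kinetochores, and B56 enzymes also promote the turnover of the MYC protein. CIP2A binds B56-containing PP2A, counteracts its action on MYC and is abundant in dividing and transformed cells. In mitosis CIP2A joins TOPBP1 to hold broken chromosomes together. These processes take place at the level of protein, and the arrays measured transcripts only.

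The mature microRNA for which the mimic stands is shown because its seed, bases 2 to 8 in capitals, is the part that pairs with target transcripts. The sequence is that of RefSeq (build GRCm38.p6), located on the plus strand at chr12:108658680-108658702.
mmu-miR-342-3p: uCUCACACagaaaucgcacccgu
This seed occurred in 1 of 1679 mature mouse microRNAs of the RefSeq table, which is miR-342-3p itself. Matches to it in the transcripts of the 10 genes were not analysed here.

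All values are log2 values after RMA, and every log2 fold change is miR-342-3p minus control. The control arrays were tight, with correlations across genes of 0.9982 to 0.9986, and the miR-342-3p arrays more spread (0.9909 to 0.9926). The mean absolute change of all genes from the control mean was 0.27, 0.20 and 0.13 in miR-342-3p replicates 1, 2 and 3, so that replicate 3 lay nearest to the controls. Single macrophage markers had means from 7.40 (Adgre1) to 12.63 (Cd68), and the mean of 9 of them was 10.74 to 10.77 on the control and 10.55 to 10.74 on the miR-342-3p arrays. Spi1 was higher and Fcgr1 and Itgam were lower in the latter at an FDR under 0.1. The mean of 5 lymphocyte markers was 5.36 to 5.43 and 5.36 to 5.76, and that of 5 fibroblast markers 6.91 to 6.97 and 7.05 to 7.37, with Pdgfra higher. The part of these shifts in the results below was not tested.

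Cip2a was the gene with by far the largest difference among the 10. Its log2 value was 9.51, 9.48 and 9.40 on the control arrays and 8.07, 7.86 and 8.88 on miR-342-3p arrays 1, 2 and 3 (probe set 10436106, the only probe set annotated to the gene). Every miR-342-3p array thus lay below every control array, with 0.52 between the nearest arrays of the groups, and replicate 3 was the least reduced. The mean decreased from 9.46 ± 0.060 to 8.27 ± 0.54 (SD, n = 3). This log2 fold change of -1.19 (standard error 0.22) leaves 43.8% of the control level. Ordered from the largest decrease, Cip2a was number 18 of 19938 genes. Its change from the control mean was -1.39, -1.60 and -0.58 in replicates 1, 2 and 3. The fold change ranged from -1.49 without miR-342-3p replicate 3 to -0.99 without replicate 2.

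**Figure D1:**
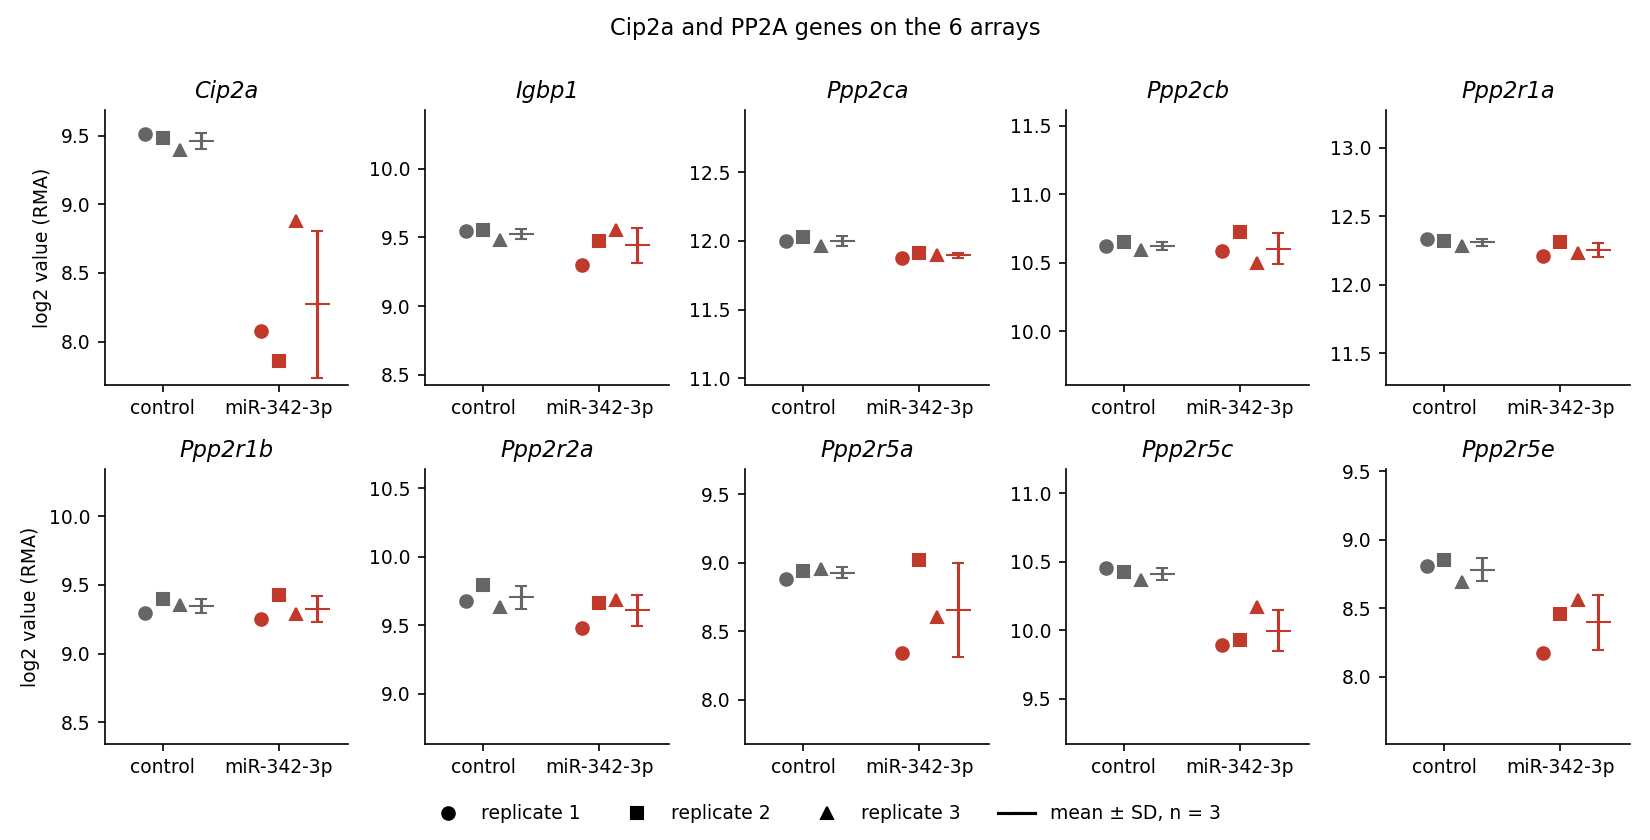
Log2 values of Cip2a and the 9 PP2A genes on the 6 arrays, with control in grey and miR-342-3p in red, 1 symbol shape per replicate number, and bars for mean ± SD (n = 3). All panels span 2 log2 units; only Cip2a shows a drop of more than 1 unit in the mean, from 9.46 to 8.27, whereas the log2 fold changes of the catalytic and scaffold subunits lie between -0.10 and -0.019.

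For 7 of the 10 genes the RefSeq table (build GRCm38.p6) holds a promoter window from 250 bases before to 50 bases after the start, 8 windows in all. They were searched on both strands for motifs of factors known from cell cycle and Cip2a promoters, chosen with the values known: TTCCCGC as an E2F motif, TTGGCGC as its variant, CCAAT as the NF-Y box, CCGGAAG as an ETS motif, CACGTG as the E-box and TTTGAA as the cell cycle homology region. The Cip2a window held TTCCCGC at positions -218 and -123, CCAAT at -84 and, on the opposite strand, the ETS motif at -47, each counted from the start at the first base of the match and without overlap among them. The matches are in capitals within 30 bases of the plus strand of chromosome 16, and they are shown because Cip2a is the gene that stands apart.
Cip2a E2F 1, chr16:48993959-48993988: gtctcgcgagaTTCCCGCgtgttcgcggac
Cip2a E2F 2, chr16:48994054-48994083: tccctgccaccTTCCCGCaaccccagcgcc
Cip2a CCAAT, chr16:48994092-48994121: aggcccaccctgCCAATcaccgactgcagt
Cip2a ETS, chr16:48994130-48994159: ctgctcccagaCTTCCGGagtccgaccgga
TTCCCGC was held by 4.6% of all 32851 promoter windows, the ETS motif by 8.86% and CCAAT by 37.4%. These shares are not matched for base composition. The median window of the 10 genes had 64.0% G and C bases and 26 CG pairs, that of all windows 52.7% and 7. Among the 8 windows of the 10 genes, TTCCCGC was also found for Ppp2r5a and the ETS motif for Ppp2r1a. CACGTG (7.15% of all windows) was found for Igbp1, and CCAAT for 6 genes with Cip2a among them. TTGGCGC (2.45%) and TTTGAA (17.9%) were in none. A match is a description of the letters in the window and not a bound site.

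The catalytic subunits, which carry the active site, differed little. Ppp2ca was at 12.00, 12.03 and 11.96 on the control arrays and at 11.88, 11.91 and 11.89 on the miR-342-3p arrays. The groups did not overlap, but the gap between them was 0.047 and the log2 fold change -0.10 (standard error 0.070), or 93.1% of the control level. Ppp2cb, the near-identical second isoform, was at 10.62, 10.65 and 10.59 in the controls and at 10.58, 10.72 and 10.50 in miR-342-3p replicates 1, 2 and 3. Its groups overlapped, with replicate 2 above and replicates 1 and 3 below all controls, and its log2 fold change was -0.019 (standard error 0.082).

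The scaffold subunits, on which the trimer is built, behaved likewise. Ppp2r1a, the main scaffold, was at 12.33, 12.32 and 12.28 in the controls and at 12.21, 12.31 and 12.23 after miR-342-3p. Ppp2r1b, the less abundant scaffold isoform in most tissues, was at 9.29, 9.40 and 9.36 and at 9.26, 9.43 and 9.28. In both genes the groups overlapped through miR-342-3p replicate 2. The log2 fold changes were -0.061 (standard error 0.072) and -0.026 (standard error 0.080). With quantile normalization repeated over the arrays, Ppp2cb and Ppp2r1b were at 0.026 and 0.027, so the sign of these small differences depends on the scaling. It also depends on single arrays, with Ppp2cb at 0.032 without miR-342-3p replicate 3 and Ppp2r1b at 0.0082 without replicate 1.

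Subtracting within each array removes an offset that all genes of the array share, but not a shift that differs with the level. The control means of Cip2a (9.46) and of the 4 catalytic and scaffold genes (11.07) differ in level. The log2 value of Cip2a minus the mean of the 4 catalytic and scaffold genes was -1.55, -1.62 and -1.65 on the control arrays and -2.91, -3.23 and -2.10 on miR-342-3p arrays 1, 2 and 3. The groups did not overlap, and the difference between their means was -1.14, close to that of Cip2a alone. Across the arrays left out in turn it ranged from -1.46 to -0.90. Relative to the control mean it was at -1.30, -1.63 and -0.49 on the 3 miR-342-3p arrays, so the transcript of the inhibitor was reduced against those of the core enzyme on each of them.

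Among the regulatory subunits, the B55 subunit Ppp2r2a, which guides PP2A to substrates of the mitotic kinase CDK1, had overlapping groups. Its values were 9.68, 9.80 and 9.64 in the controls and 9.48, 9.66 and 9.69 in miR-342-3p replicates 1, 2 and 3, a log2 fold change of -0.094 (standard error 0.087). Replicate 1 was below every control array. The fold change was -0.030 without it and -0.049 without control replicate 2.

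The 3 B56 genes among the 10 showed larger differences. Ppp2r5c, which encodes B56 gamma, was at 10.45, 10.42 and 10.36 in the controls and at 9.89, 9.93 and 10.17 in miR-342-3p replicates 1, 2 and 3. The groups were 0.20 apart, and the log2 fold change of -0.41 (standard error 0.091) corresponds to 75.0% of the control level. Ppp2r5e, which encodes B56 epsilon, was at 8.81, 8.85 and 8.69 and at 8.18, 8.46 and 8.56. Its groups were 0.13 apart, with replicate 1 lowest, and the log2 fold change was -0.38 (standard error 0.11), or 76.6% of control. Ppp2r5a, which encodes B56 alpha, was at 8.88, 8.94 and 8.96 and at 8.34, 9.02 and 8.60. Here replicate 2 was above every control array while replicates 1 and 3 were below all of them. On the probe set used, the log2 fold change of Ppp2r5a was -0.27 (standard error 0.15), -0.46 without replicate 2 and -0.12 without replicate 1. The probe set of Ppp2r5a with the highest level gave -0.023. Within each array, the mean of the catalytic and scaffold genes was subtracted from the mean of these 3 B56 genes. This gave -1.68, -1.69 and -1.71 on the control arrays and -2.18, -1.96 and -1.87 on the miR-342-3p arrays. The groups did not overlap (difference -0.30). The other B56 genes Ppp2r5b and Ppp2r5d are not in this mean. Their log2 fold changes were 0.29, with miR-342-3p above every control array, and -0.085, with overlap.

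Of the 10 genes, only Ppp2r5a and Ppp2r5c had several probe sets, 4 each. For Ppp2r5c the probe set used lists 10 transcript accessions, the others 2 or 3, and these others gave log2 fold changes of -0.24, -0.22 and -0.088. On these 3 probe sets miR-342-3p replicate 3 was at -0.0094, -0.0052 and -0.012 relative to the control mean, whereas it was at -0.24 on the one used. The mean over the 4 probe sets gave -0.24. For Ppp2r5a, 3 probe sets with the same 2 accessions gave -0.27, -0.25 and -0.22 with the same order of arrays. The fourth, with 3 accessions and the highest level, gave -0.023. The position of these probe sets in the genome was not checked, so whether all 4 read the Ppp2r5a gene itself is not known. The within-array mean of the B56 genes used the one at -0.27. The size of the differences of the B56 genes thus depends on the probe set, and the choice of the most variable one favors large differences.

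**Figure D2:**
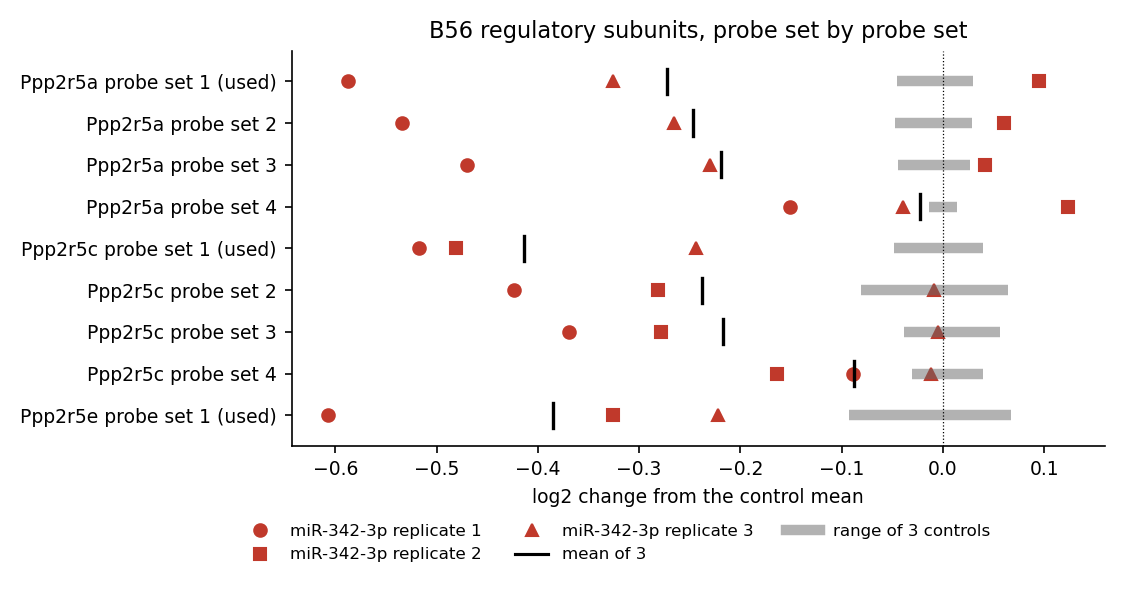
Log2 change from the control mean for each probe set of the B56 genes Ppp2r5a, Ppp2r5c and Ppp2r5e, with red symbols for miR-342-3p replicates 1 to 3, a black line at their mean and a grey bar for the range of the 3 control arrays. On every probe set of Ppp2r5a replicate 2 lies above the control mean, and the Ppp2r5c probe set used is the one with the largest change (-0.41, against -0.24, -0.22 and -0.088).

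Igbp1 encodes alpha4, which binds and stabilizes free catalytic subunits of PP2A and its relatives. It was at 9.54, 9.55 and 9.49 in the controls and at 9.30, 9.47 and 9.55 in miR-342-3p replicates 1, 2 and 3. The groups overlapped, with replicate 1 lowest and replicate 3 level with the controls, and the log2 fold change was -0.084 (standard error 0.086). It was -0.013 without replicate 1 and -0.14 without replicate 3.

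All 10 log2 fold changes were below 0, with a median of -0.099, where the median of all 19938 genes was 0.069 and 35.5% of genes were below 0. All 10 genes were above the median level of all genes. Of the genes above that level 53.6% were below 0, with a median of -0.024, and 13.6% were called lower. With quantile normalization repeated 8 of the 10 genes were below 0, and their median was -0.053. In the limma fit over all genes, Cip2a, Ppp2r5c and Ppp2r5e were lower at an FDR under 0.1 and none was higher, where 7.42% of all genes were called lower and 4.14% higher. The groups did not overlap, with miR-342-3p lower, in 4 of the 10 genes, where this held for 15.5% of all genes and the opposite order for 21.4%. Of the 9969 genes above the median level, 2807 were apart with miR-342-3p lower and 2103 in the opposite order. Since the choice of the genes used this contrast, nothing is read from these counts. miR-342-3p replicate 1 was the lowest array of its group in 8 genes, replicate 2 in Cip2a and replicate 3 in Ppp2cb. Replicate 1 was below the lowest control array in all 10 genes, replicate 2 in 5 and replicate 3 in 8. The shares of all genes for these orders were not computed. The median change of the 10 genes was -0.22, -0.048 and -0.11 in replicates 1, 2 and 3. For all genes above the median level it was -0.095, 0.036 and -0.020, so replicate 1 was lowest there too. Without control replicate 1, 2 or 3 none of the 10 was called, and 3 were at an unadjusted p under 0.05 each time. The share of all genes called lower was then 0.512%, 0.577% and 0.702%. Without miR-342-3p replicate 1 Ppp2r5e was not called, and without replicate 2 Ppp2r5a was called as well.

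The genes whose pattern over the 6 arrays was most like that of Cip2a were found by the Euclidean distance between the differences of each gene from its own control mean. The nearest were Ncapg (distance 0.17) and Ncapg2 (0.25), subunits of the condensin complexes that compact mitotic chromosomes, Slf1 (0.21), which acts in the repair of stalled replication forks, Idi1 (0.21), an enzyme of isoprenoid and cholesterol synthesis, and Cep70 (0.23), a centrosome protein. The median distance of all other genes was 2.34. Ncapg was at -1.24, -1.65 and -0.54 relative to its control mean in miR-342-3p replicates 1, 2 and 3, close to the values of Cip2a. Slf1 has 2 probe sets, as does Idi1, and the most variable was used. The distance describes 6 arrays of 2 groups, in which any gene with a large decrease and a weak replicate 3 comes out near.

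**Figure D3:**
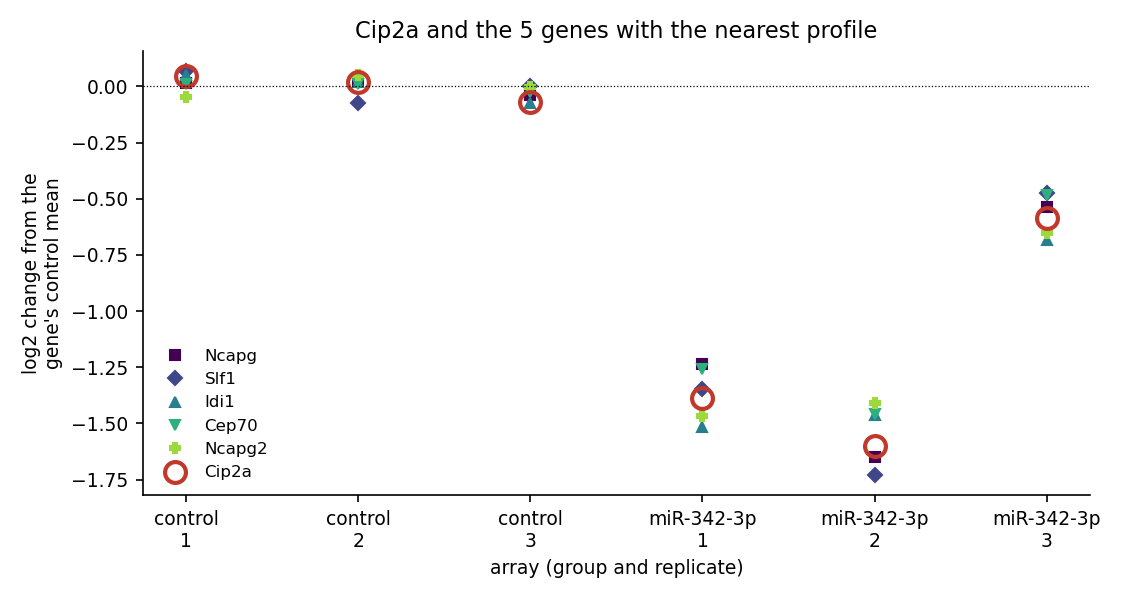
Log2 change from the gene's own control mean on each of the 6 arrays for Cip2a (open red circles) and the 5 genes nearest to it. All 6 genes are near 0 on the control arrays, are lowest on miR-342-3p arrays 1 and 2 and lie between -0.68 and -0.48 on array 3.

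For the wider PP2A network, 65 further genes were listed by role, of which 61 were measured on the arrays. The lists were chosen with earlier results of these data known. Their shares and medians are therefore a description beside those of all genes and not a test of the network. Of these, 19 were downregulated and 1 was upregulated in miR-342-3p-transfected cells at an FDR under 0.1, and 41 did not pass the test. In percent, 31.1% were lower, where 7.42% of all genes were, and 1.64% higher, where 4.14% of all genes were. The median log2 fold change of the 61 genes was -0.22, against 0.069 for all genes. Levels differ between these sets, since 53 of the 61 genes were above the median level of all genes, and all 10 members were. Of the genes above the median level, 13.6% were called lower and their median log2 fold change was -0.024, whereas 19 of the 53 network genes were lower and their median was -0.25. Without control replicate 1, 2 or 3, the lower calls were 1 (Kif4), 0 and 1 (Kif4), whereas 19, 21 and 19 of these genes were lower at an unadjusted p under 0.05. Without miR-342-3p replicates 1, 2 and 3 there were 12, 22 and 31 lower genes.

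**Figure D4:**
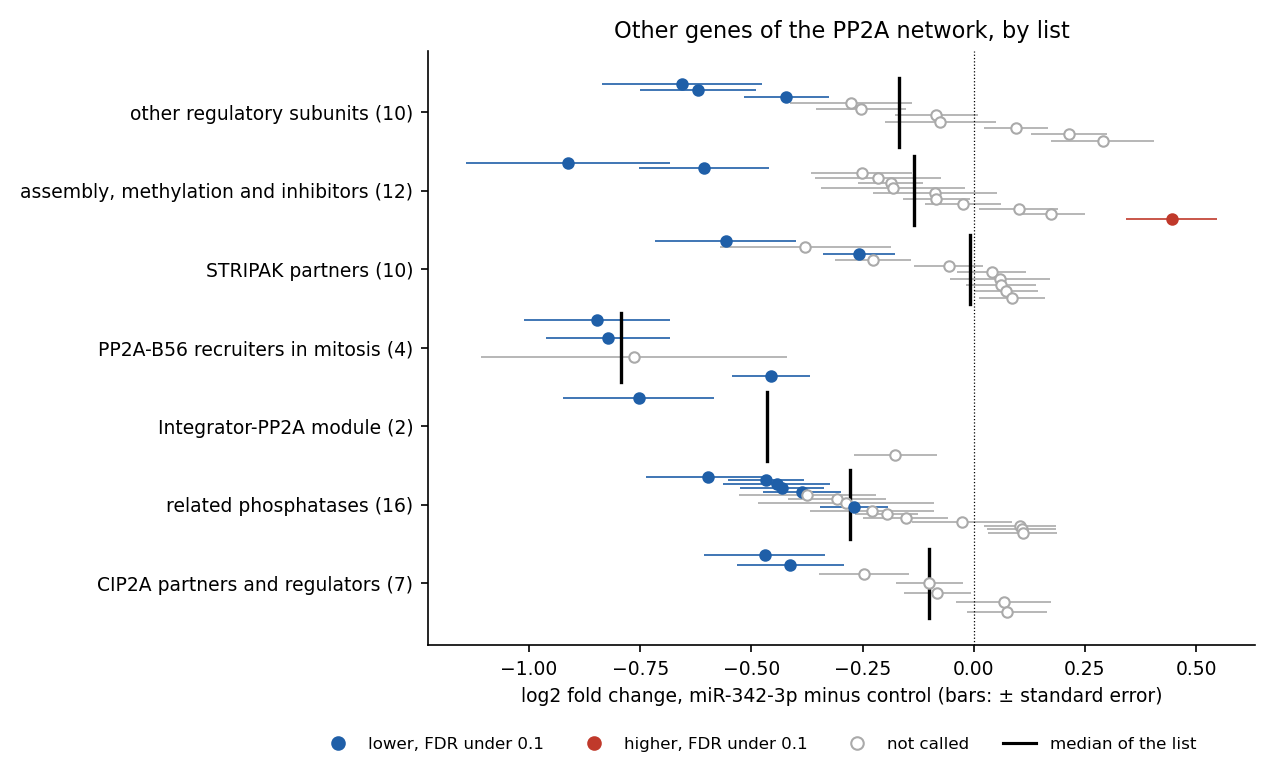
Log2 fold change of the 61 measured network genes in 7 lists, 1 point per gene with its standard error, filled where the FDR was under 0.1, and a black line at the median of each list. The list of 4 mitotic recruiters of PP2A-B56 has the lowest median (-0.79), the lowest single point is Mastl (-0.91), and Ppme1 (0.44) is the filled point to the right of 0.

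Of 10 other regulatory subunits, 3 passed the test, all of them lower, and 7 did not. Ppp2r3c, a B'' subunit also known as a centrosomal protein, had a control mean of 9.06 ± 0.061 (SD, n = 3) and lay at -1.14, -0.49 and -0.34 relative to it in miR-342-3p replicates 1, 2 and 3, without overlap of the groups. It was most reduced in replicate 1. Its log2 fold change was -0.66 (standard error 0.18, limma FDR = 0.070), and -0.42 without that replicate. Strn3, which encodes a striatin that serves as the B subunit of the STRIPAK complex, was at 9.11, 9.07 and 9.10 in the controls and at 8.34, 8.28 and 8.80 after miR-342-3p. The groups did not overlap, and its log2 fold change was -0.62 (standard error 0.13, limma FDR = 0.035). Ppp2r2d, a B55 subunit of mitotic exit, was at -0.42 (limma FDR = 0.044). The remaining B56 genes Ppp2r5b and Ppp2r5d, named after their values were seen, were at 0.29 (limma FDR = 0.16) and -0.085 (limma FDR = 0.56).

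Of 12 measured genes for assembly, methylation and inhibition of PP2A, 2 were lower and 1 was higher. Mastl encodes the Greatwall kinase, which switches on the PP2A-B55 inhibitors ARPP19 and ENSA at mitotic entry. Its control mean was 8.99 ± 0.070 (SD, n = 3), and it lay at -0.99, -1.43 and -0.32 relative to this in miR-342-3p replicates 1, 2 and 3, an order of arrays like that of Cip2a. The log2 fold change of Mastl was -0.91 (standard error 0.23, limma FDR = 0.057), and without replicate 1 it was -0.88 and was not called (limma FDR = 0.15). Arpp19 was at 9.51, 9.52 and 9.39 and at 8.56, 8.83 and 9.20. Its log2 fold change was -0.61 (standard error 0.15, limma FDR = 0.051), with no overlap of the groups. Ensa, its paralog, was at -0.025 (limma FDR = 0.86).

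Ppme1 was the only gene of the network called higher at an FDR under 0.1. It encodes the methylesterase that removes the methyl group from the catalytic subunit, which lowers the binding of B55 subunits. Ppme1 was at 9.65, 9.37 and 9.49 in the controls and at 9.81, 10.09 and 9.95 after miR-342-3p. The groups did not overlap, and the log2 fold change was 0.44 (standard error 0.10, limma FDR = 0.046). Ppme1 was not called without control replicate 1, 2 or 3 (limma FDR = 0.12, 0.20 and 0.18). The opposing methyltransferase Lcmt1 was at -0.084 (limma FDR = 0.47).

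All 4 genes that recruit PP2A-B56 in mitosis had separate groups with miR-342-3p lower, and 3 passed the test. Such separation was found in 30 of the 61 network genes and in 15.5% of all genes. Above the median level it was found in 29 of 53 network genes and in 2807 of 9969 genes. Sgo1 encodes shugoshin, which protects cohesin at centromeres together with PP2A-B56. It was at 9.74, 9.78 and 9.71 in the controls and at 8.54, 8.85 and 9.30 in miR-342-3p replicates 1, 2 and 3, a log2 fold change of -0.85 (standard error 0.16, limma FDR = 0.028). The chromosome-bound kinesin Kif4 was at 8.39, 8.49 and 8.44 and at 7.40, 7.49 and 7.97. The log2 fold change of Kif4 was -0.82 (standard error 0.14, limma FDR = 0.020). Bub1b, whose product BUBR1 brings B56 to kinetochores, was at -0.46 (standard error 0.087, limma FDR = 0.027). Sgo2a had a log2 fold change of -0.76 but did not pass the test (standard error 0.34, limma FDR = 0.20), because its value was 8.19 in replicate 2 and 9.84 in replicate 3.

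Among partners and regulators of CIP2A, 2 of 7 were lower and none was higher. Topbp1 was at 10.28, 10.36 and 10.42 in the controls and at 9.96, 9.57 and 10.14 in miR-342-3p replicates 1, 2 and 3. The groups did not overlap. Its log2 fold change was -0.47 (standard error 0.14, limma FDR = 0.080), and -0.31 without replicate 2. It was not called without replicate 1 (limma FDR = 0.13) or with repeated quantile normalization (limma FDR = 0.11). The centrosome kinase Nek2 was at -0.41 (limma FDR = 0.082) and -0.27 without replicate 1, and it was not called when the arrays were centered on their medians (limma FDR = 0.12). The other 5 genes of the list are named after their values were seen. The Myc transcript, whose protein CIP2A protects, was at 9.29, 9.30 and 9.25 and at 9.22, 9.59 and 9.23, so that its groups overlapped (log2 fold change 0.067, standard error 0.11). Plk1 was at -0.10, Mdc1 at -0.25, and the transcription factors E2f1 and Ets1, which act on the Cip2a promoter, at -0.082 and 0.075, and none of these 5 passed the test.

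In the STRIPAK complex, which joins PP2A to protein kinases, 2 of 10 partners were lower and none was higher. Pdcd10 had a log2 fold change of -0.56 (limma FDR = 0.078), and -0.35 without miR-342-3p replicate 1. It missed the threshold with the mean of its probe sets (limma FDR = 0.103) and with centered arrays (limma FDR = 0.1004). Fgfr1op2 had a log2 fold change of -0.26 (limma FDR = 0.098) and was not called without miR-342-3p replicate 1 or 2 (limma FDR = 0.15 and 0.12), with the replicate number as a block (limma FDR = 0.20), with either rescaling (limma FDR = 0.11 and 0.12) or with array weights (limma FDR = 0.16). Ints8, through which the Integrator complex holds PP2A at transcribed genes, was at -0.75 (standard error 0.17, limma FDR = 0.043), and it was not called without miR-342-3p replicate 1 (limma FDR = 0.11). Ints6 was at -0.18 (limma FDR = 0.26).

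The related phosphatases PP1, PP2B (calcineurin), PP4, PP5 and PP6 were represented by 16 genes, of which 6 were lower and none was higher, with a median log2 fold change of -0.28. The catalytic subunit Ppp6c of PP6 was at 11.11, 11.13 and 11.07 in the controls and at 10.51, 10.63 and 10.77 after miR-342-3p. Its log2 fold change was -0.47 (standard error 0.086, limma FDR = 0.026), with no overlap. The PP6 regulatory subunit Ppp6r3 was at -0.44 (limma FDR = 0.069), while Ppp6r1 and Ppp6r2 were at 0.11 and 0.10. The calcineurin catalytic subunit Ppp3cb was at 10.31, 10.31 and 10.33 and at 9.55, 9.54 and 10.08, a log2 fold change of -0.60 (standard error 0.14, limma FDR = 0.047). Without miR-342-3p replicate 1, Ppp6r3 and Ppp3cb were not called (limma FDR = 0.14 and 0.12). Ppp4c, Ppp3r1 and Ppp1cc were also lower. The catalytic genes of PP4 and PP6, Ppp4c (-0.43) and Ppp6c, thus passed the test, and those of PP2A, at -0.10 and -0.019, did not, but the difference between these genes was not tested.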

How the data were processed

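Total RNA of 3 control and 3 miR-342-3p-transfected RAW264.7 samples had been measured on Affymetrix mouse gene arrays. The authors applied RMA, which adjusts background, equalizes quantiles between arrays and summarizes probes (version not given in the sources used here), and deposited 1 log2 value for each of 35556 probe sets. The labels gave each sample its group and number. No pair of arrays held identical values. The median of the deposited values was 6.83, 6.85 and 6.85 on the control arrays. It was 6.95, 6.80 and 6.88 on miR-342-3p arrays 1, 2 and 3, so the arrays were not on exactly the same scale.

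Gene names came from the platform annotation, which ties 21789 probe sets to 1 gene, 1621 to several and 12146 to none. Of the first kind, 21698 matched the RefSeq gene table (GRCm38.p6) by Entrez ID, and 0 symbols changed. Each of 19938 genes was represented by its most variable probe set (by interquartile range), and no level was required. Where a probe set lies in the genome was not checked, which matters for genes with several, such as Ppp2r5a, Pdcd10 and Idi1. The linear model was that of limma 3.58.1 (lmFit, then eBayes) under R 4.3.3, with 4 residual and 4.79 prior degrees of freedom, and p-values were adjusted over all genes by the Benjamini-Hochberg method to an FDR, called under 0.1. RMA compresses differences of weak probe sets, and the number of arrays limits the precision. The steps were tested on simulated data.

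The 10 genes and the network lists were chosen with earlier results of these data known. Named in the text were the 10 genes, up to 3 called genes of each list in the main direction and 2 in the other, and the 5 genes nearest to Cip2a. Others that are named were chosen after their values were seen. Of the 65 listed network genes, 4 are not reported here. The results were recomputed with arrays left out in turn, with replicate numbers blocked and with the highest or the mean probe set. They were also recomputed after median centering or renewed quantile normalization, above the median level, with weighted arrays and with a robust trended prior. Student's t-test and an FDR under 0.05 were the last settings. Figures were drawn with matplotlib version 3.10.9.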

Additional observations from a re-analysis of the deposited data

How the results depend on the processing

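The direction of Cip2a, of the median of the 10 genes and of Cip2a minus the core subunits was kept in every alternative run for them, and Cip2a ranged from -1.49 to -0.93. With the array left out in turn, the number of the 10 genes called lower ranged from 0 to 4 and of those called higher stayed at 0, and the network genes called lower ranged from 0 to 31 and called higher from 0 to 1. The study fitted these arrays with limma and names Student's t-test as its general test of 2 groups. That t-test after Benjamini-Hochberg adjustment called 0 of the 10 genes (4 lower at an unadjusted p under 0.05). Of the network genes it called 0 lower and 0 higher (19 and 4 unadjusted). At an FDR under 0.05, 10 network genes were lower. With repeated quantile normalization 2 network genes were higher. That scaling called 1424 of all genes lower and 1817 higher, against 1479 and 825 in the deposited values, and centering each array on its median called 1379 and 408. With the replicate block, 3 of the 10 genes and 18 network genes were lower and 1 higher. Whether the numbers pair the samples is not given by the labels. Deviations from the group mean correlated at -0.31, -0.16 and -0.11 for same-numbered arrays. For arrays of different numbers they correlated at -0.069 to 0.23. Deviations within such small groups are tied to each other, so these values cannot decide on a pairing. The causes of the shifts between settings were not tested. The probe set with the highest mean moved Ppp2r5a to -0.023. Ppp2r5e was not called after centering or with array weights, and Ppp2r5c was not called with the mean of its probe sets.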
